A study of Schizosaccharomyces pombe with 4 samples.

Results

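The antioxidant enzyme genes described here are *ctt1*, *gpx1*, *sod1*, *sod2*, *tpx1*, *trr1*, *trx1*, *trx2*, *pmp20* and *srx1*, chosen by name. All 10 are in the table, which lists 5129 protein-coding genes among 9139 annotated features other than coding sequence entries. They were described in *S. pombe* cells to which no oxidant is said to have been added, with *ctt1* as the reference for the other 9. The libraries come from the *exo2*Δ strain YAM2507, which has a Flag-tagged Rpb3, a subunit of RNAPII, and lacks the gene for the exoribonuclease Exo2. The IP group holds 2 NET-Seq libraries of nascent RNA, purified with RNAPII from exponentially growing cells. The input group holds 2 libraries of total RNA from the same biological samples, made by the same steps without the purification of RNAPII. Both groups share the deletion and the tag, and libraries of cells with Exo2 were not analysed here, so no value below measures what the loss of Exo2 did to a gene.

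Cells that respire form superoxide and hydrogen peroxide. Superoxide dismutases turn superoxide into hydrogen peroxide, and catalase, peroxiredoxins and glutathione peroxidase remove the peroxide. Peroxiredoxins are returned to their reduced form by thioredoxins, which thioredoxin reductase recharges with electrons from NADPH, and sulfiredoxin rescues peroxiredoxins that were oxidised too far. In fission yeast the transcription factors Pap1 and Atf1 raise many of these genes under oxidative stress. Exo2 degrades XUTs, a family of long non-coding RNAs of which many lie antisense (as) to genes, and *ctt1* is the gene with an asXUT on which the study worked.

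A level is given as a density, which is normalized reads per nt of the annotated feature, so that genes of different length can be compared. The IP libraries hold 3338808 and 6962801 reads on features and the input libraries 10172688 and 9114952, with tRNA genes taking 6.80% to 7.18% of the IP and 73.9% to 75.0% of the input. Of these, the 10 genes together hold 5556 and 11841 in the IP and 4788 and 3795 in the input. As a check of the strain, the main coding exon of *exo2* had a density of 0.0113 and 0.0104 in the IP, against 0.158 and 0.140 in the rest of that gene. In 48 coding segments of at most 3 nt the IP libraries held as many reads as 48.2 and 45.1 nt of the whole gene (medians), with reads of 50 nt. In the IP a read was thus counted on each feature it touches, which overstates the density of short features there. In the input the same measure was 5.04 and 0.973 nt, with a median of 1 read on such a segment.

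Short stretches of the genome show 2 features of these loci that the values below refer to: the start codon of *trr1*, which an intron splits, and matches to the letters known to be bound by Pap1 or Atf1 upstream of a few members. All sequences were read from the RefSeq genome of *S. pombe*, on which all 10 members read from ATG to a stop codon in whole codons. For *trr1*, the coding bases are in capitals at the 2 borders of the first intron (299 nt), and the single A of the first coding segment is followed by the TG of the second.
*trr1* end of first coding segment, chrII:4189953-4189982, + strand: atactcatatcaatAgtaagtgaaacgaaa
*trr1* start of second coding segment, chrII:4190252-4190281, + strand: tactgacttcattagTGACTCACAACAAGG

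Windows from 250 bases before to 50 after the annotated start of each gene were searched on both strands for TTACGTAA and TTAGTCA, which Pap1 binds, and TGACGT, which Atf1 binds. TTACGTAA was found in the window of 1 member, *gpx1*, and in 0.508% of the 5117 windows searched. TTAGTCA was found for 1 member, *tpx1*, on the opposite strand, and in 4.67% of all windows. TGACGT was found for 2 members, *pmp20* and *ctt1*, and in 5.78% of all windows. These 2 genes had the highest and the lowest mean nascent level of the 10. In *pmp20* a second match on the opposite strand overlaps the first. The matches are descriptions of these letters, and no binding was measured. Each line shows the match in capitals.
*ctt1*, chrIII:58875-58904, - strand: attgtgcaaataTGACGTtggtaattctac
*pmp20*, chrIII:119052-119081, - strand: aatttggtgattTGACGTcaccaaaagatt
*gpx1*, chrII:2789688-2789717, - strand: ttttattaattTTACGTAAatttctcttgt
*tpx1*, chrIII:2085880-2085909, - strand: cgcctaattatTGACTAAgctcacttgctt

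The nascent level of the 10 genes spanned 127-fold in the IP and the total level 164-fold in the input. In both, 7 of the 10 lay above the median protein-coding gene, whose density is 0.0853 in the IP and 0.0152 in the input. The peroxiredoxin genes *pmp20* and *tpx1*, the cytosolic superoxide dismutase *sod1* and the thioredoxin *trx1* were at the top, and *trx2*, *srx1* and *ctt1* below the median gene by their means. The 3 genes below the median gene thus include the catalase gene. In the input replicates *trx2* lay on either side of the median gene, above 51.2% and 46.4% of protein-coding genes.

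**Figure D1:**
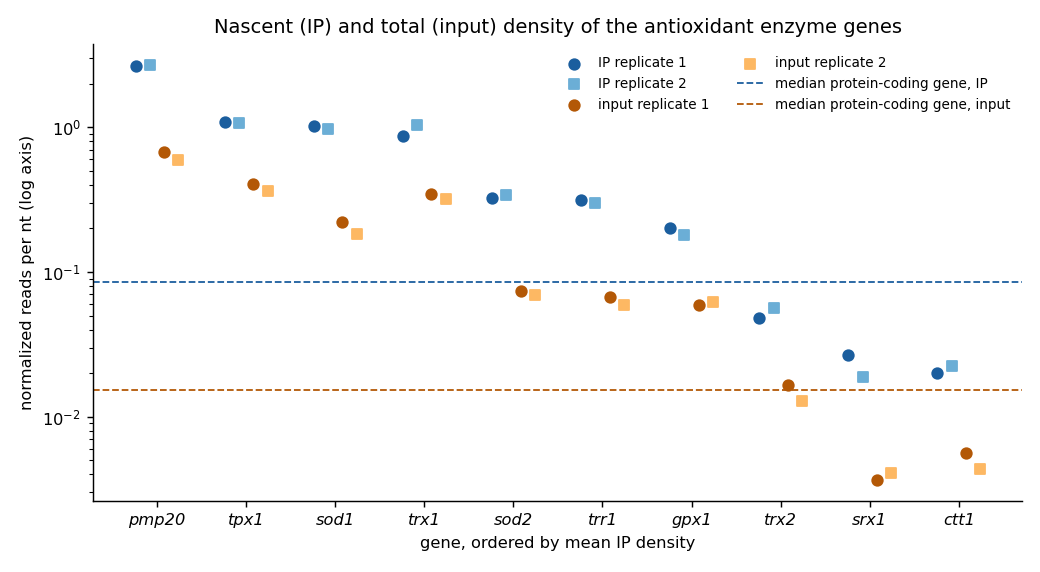
Normalized reads per nt (log axis) of the 10 antioxidant enzyme genes in each of the 4 libraries, ordered by mean IP density, with dashed lines at the median protein-coding gene of each kind of library. The IP points of *pmp20* lie at 2.66 and 2.70 and those of *ctt1* at 0.0199 and 0.0223, and the IP points of each gene lie above its input points.

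Among the peroxiredoxins, *pmp20* (SPCC330.06c, chromosome III, 118222 to 119002, - strand), which encodes a protein of the peroxiredoxin family, had an IP density of 2.66 and 2.70 in replicates 1 and 2. Its input density was 0.678 and 0.596. It ranked 23 of 5129 protein-coding genes in both IP replicates and 54 and 55 in the input replicates. *pmp20* alone held 37.3% and 37.6% of the IP reads of the 10 genes (34.8% and 34.4% of the input reads).

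*tpx1* (SPCC576.03c, chromosome III, 2084942 to 2085706, - strand) encodes the 2-Cys peroxiredoxin that reduces hydrogen peroxide and passes the signal on to Pap1. Its density was 1.09 and 1.07 in the IP and 0.405 and 0.363 in the input. *tpx1* is second of the 10 in both kinds of library, and *pmp20* exceeded it 2.44- and 2.53-fold in the IP and 1.67- and 1.64-fold in the input.

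*srx1* (SPBC106.02c, chromosome II, 376253 to 377036, - strand) encodes the sulfiredoxin that reactivates overoxidised Tpx1. In the IP it had 21 and 31 reads, with exact Poisson intervals (95%) of 13.0 to 32.1 and of 21.1 to 44.0, and in each input replicate 9 reads (4.12 to 17.1). Its density was 0.0268 and 0.0187 in the IP and 0.00365 and 0.00409 in the input. These intervals cover counting error only, and the depth at *srx1* is the lowest of the 10 genes. The genes of the enzyme and of its substrate were thus far apart in RNA level, with *tpx1* above *srx1* in each of the 4 libraries. Protein was not measured.

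The glutathione peroxidase gene *gpx1* (SPBC32F12.03c, chromosome II, 2788863 to 2789614, - strand) had an IP density of 0.201 and 0.180 and an input density of 0.0592 and 0.0621. It lay above the median gene in all 4 libraries, and it ranked higher in the input (688 and 588) than in the IP (942 and 998).

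Of the superoxide dismutases, the Cu/Zn enzyme gene *sod1* (SPAC821.10c, chromosome I, 1002838 to 1003600, - strand) had an IP density of 1.02 and 0.964 and an input density of 0.221 and 0.183. The mitochondrial Mn enzyme gene *sod2* (SPAC1486.01, chromosome I, 3185314 to 3186584, + strand) had 0.323 and 0.337 in the IP and 0.0736 and 0.0693 in the input. *sod1* was higher than *sod2* in each library, and the values of the 2 genes did not overlap.

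The thioredoxin genes stood apart in the same way. *trx1* (SPAC7D4.07c, chromosome I, 2625316 to 2625855, + strand), for the cytosolic thioredoxin, had an IP density of 0.863 and 1.04 and an input density of 0.346 and 0.318. *trx2* (SPBC12D12.07c, chromosome II, 2317361 to 2318581, - strand), for the mitochondrial one, had 0.0483 and 0.0563 in the IP and 0.0167 and 0.0129 in the input. The thioredoxin reductase gene, *trr1* (SPBC3F6.03, chromosome II, 4189144 to 4191448, + strand), lay between them, with 0.313 and 0.301 in the IP and 0.0671 and 0.0589 in the input.

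The catalase gene *ctt1* (SPCC757.07c, chromosome III, 56654 to 58865, - strand) had the lowest mean IP density of the 10 genes, 0.0199 and 0.0223, and an input density of 0.00561 and 0.00435. Its counts were 44 and 104 reads in the IP and 39 and 27 in the input. Taken as the reference, *ctt1* was exceeded 134- and 121-fold by *pmp20* in the IP replicates. *tpx1* exceeded it 54.7- and 47.9-fold, *sod1* 51.2- and 43.3-fold, and *trx1* 43.4- and 46.7-fold. *sod2* was 16.2- and 15.1-fold, *trr1* 15.7- and 13.5-fold and *gpx1* 10.1- and 8.06-fold above *ctt1*. *trx2* was 2.43- and 2.53-fold above it. *srx1* was at 1.35- and 0.841-fold of *ctt1*, above it in one IP replicate and below it in the other.

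With 2 libraries a group, an order between neighbours was read only where their replicates did not overlap. In the IP order, *sod1* and *trx1* overlapped, as did *srx1* and *ctt1*, and the other 7 neighbouring pairs did not. In the input, *trr1* and *gpx1* overlapped, while *trx1* stood above *sod1* in both replicates (1.56- and 1.74-fold). There *ctt1* stood above *srx1* by 1.54- and 1.06-fold, on 9 reads of *srx1* in each replicate. Counting error was not weighed in this order. Neither gap was tested, and p-values are not given for an order. Over coding sequence alone the IP order of close neighbours changed. By their means *sod1* (1.20), *trx1* (1.14) and *tpx1* (1.10) then followed *pmp20* (2.18), and *trr1* (0.506) stood above *sod2* (0.357). In the replicates *trx1* (1.07 and 1.22) overlapped both *sod1* (1.23 and 1.17) and *tpx1* (1.12 and 1.07), so its place is not set. *sod1* and *tpx1* did not overlap.

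The 2 protein-coding genes nearest to *pmp20* in the 4 log2 densities, among the 4643 others with at least 10 reads in every library, were *ole1* (SPCC1281.06c, Euclidean distance 0.197) and SPAC1006.07 (0.200). The IP density of *ole1* was 2.53 and 2.40. Nearest to *ctt1* were *ppk24* (SPBC21.07c, distance 0.203) and *omh3* (SPCC777.07, 0.230), and the IP density of *ppk24* was 0.0207 and 0.0241.

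The comparison of IP with input asks how the nascent level of a gene stands to its total level. On the deposited scale all 10 antioxidant enzyme genes were higher in the IP, with log2 IP over input of 1.49 (*tpx1*) to 2.42 (*srx1*) by limma. This call was made for 98.8% of the 5043 protein-coding genes tested and for 91.6% of all 8651 features, so it says nothing particular to them. The tRNA shares given above differ between IP and input as well, and their part in this difference was not tested.

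On the relative scale each library was set to its median protein-coding gene, and the estimates of all protein-coding genes then have a median of -0.11 (log2). The 10 members had a median of -0.42, and all 10 estimates were below 0, as were 3000 of the 5043 protein-coding genes. That of *srx1*, -0.07, lay above the median of -0.11 and was below 0 in only 8 of 13 alternatives. Past the threshold (limma, Benjamini-Hochberg adjusted p of 0.05), 5 members had a lower IP over input, namely *tpx1*, *trx1*, *gpx1*, *trx2* and *pmp20*. That call was made for 22.2% of protein-coding genes and 17.0% of all features. No member was called higher, against 9.86% of protein-coding genes and 9.21% of all features. At an unadjusted p under 0.05, 7 members passed, all of them lower, and edgeR and DESeq2 also called no member higher.

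**Figure D2:**
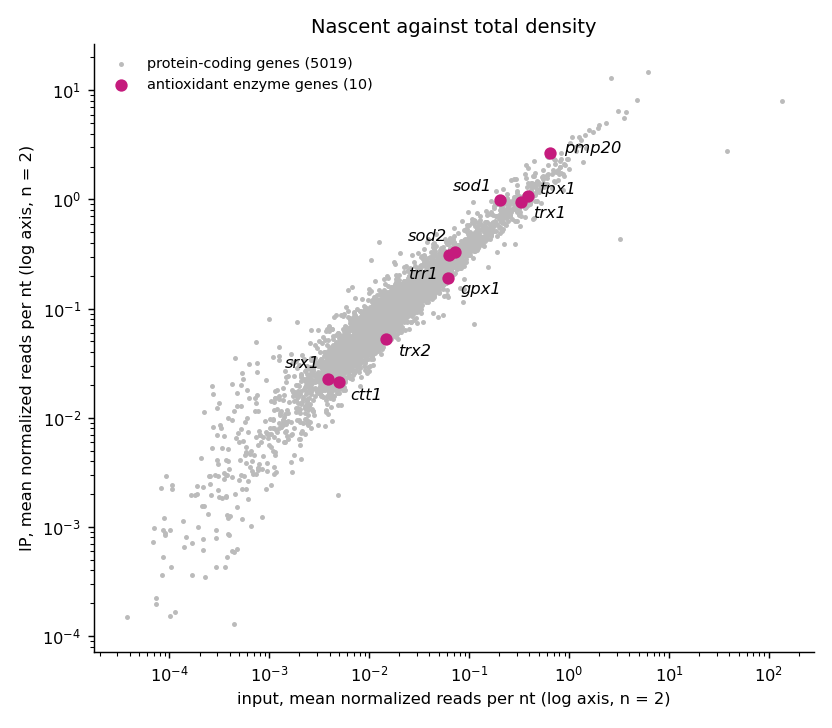
Mean IP density against mean input density (both log axes, normalized reads per nt, n = 2) of the 5019 protein-coding genes with a value above 0 in both, with the 10 antioxidant enzyme genes marked. *tpx1*, *trx1*, *gpx1* and *trx2* lie in the lower part of the cloud, with relative log2 IP over input of -1.00, -0.98, -0.85 and -0.68, and 3.87% of protein-coding genes lie lower than *tpx1* and 6.35% lower than *gpx1*.

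The peroxiredoxin gene *tpx1* had a log2 IP over input of -1.00 ± 0.09 (SE, 2 against 2 libraries, adjusted p = 2.49e-05, limma). It was -0.97 and -1.03 in replicates 1 and 2, and 3.87% of protein-coding genes had a lower estimate. *trx1*, which recharges peroxiredoxins, was at -0.98 ± 0.11 (adjusted p = 0.000159, limma), from -1.08 and -0.88. *tpx1* and *trx1* thus differed by less than their errors, and either was the lower in 1 of the replicates. The reductase gene of the thioredoxins, *trr1*, was at -0.21 ± 0.09 and not past the threshold (adjusted p = 0.122, limma), with -0.18 and -0.24. With coding sequence reads in place of the reads on the whole gene it passed, at -0.32 (adjusted p = 0.0360, limma). *gpx1* was at -0.85 ± 0.14 (adjusted p = 0.00144, limma), with -0.64 and -1.06 in the replicates. Without the trend in limma *trx1* (adjusted p = 0.0620) and *gpx1* (adjusted p = 0.0756) were no longer past the threshold, while *tpx1* was.

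*trx2* was at -0.68 ± 0.19 (adjusted p = 0.0246, limma), with -0.87 and -0.48. This call rests on IP replicate 1, without which *trx2* was at -0.55 (adjusted p = 0.170, limma). Over all alternatives the adjusted p of *trx2* ran from 0.00416 to 0.227. *pmp20* was at -0.42 ± 0.09 (adjusted p = 0.00817, limma), with -0.43 and -0.41. With coding sequence reads in place of the reads on the whole gene, *pmp20* moved to -0.91 (adjusted p = 6.38e-05, limma), and *trx2* was no longer past the threshold at -0.63 (adjusted p = 0.0882, limma). The adjusted p of *pmp20* ran from 6.38e-05 to 0.130 over the alternatives.

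*sod2* was at -0.29 ± 0.10 and missed the threshold (adjusted p = 0.0644, limma), with -0.27 and -0.31. With the replicate number as a block, which pairs the IP and input of 1 culture, it passed (adjusted p = 0.0305, limma). It also passed without input replicate 1, at -0.35 (adjusted p = 0.0457, limma), and over all alternatives its adjusted p ran from 0.0305 to 0.468. *sod1* was at -0.19 ± 0.09 (adjusted p = 0.151, limma), with -0.19 in both replicates. *ctt1* was at -0.43 ± 0.22 (adjusted p = 0.188, limma), with -0.59 and -0.27, and with a pseudocount 10 times larger it passed as lower at -0.57 (adjusted p = 0.0308, limma). *srx1* was at -0.07 ± 0.40 (adjusted p = 0.920, limma), from 0.35 and -0.50, so that its replicates fell on either side of 0. Against the reference *ctt1*, the unscaled log2 IP over input of *tpx1*, *trx1* and *gpx1* was lower in both replicates, and the values did not overlap. The difference from *ctt1* was -0.40 and -0.80 for *tpx1*, -0.51 and -0.64 for *trx1*, and -0.06 and -0.82 for *gpx1*. The other 6 members overlapped *ctt1*. These gaps to *ctt1* were not tested.

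The other redox genes served as a comparison, in 5 lists with 21 genes. Of the genes of glutathione synthesis and recycling, 2 of 3 were lower, with *gsa1* (glutathione synthetase) lowest at -0.48 and *gcs1*, for the enzyme of the first step, highest at -0.13 and not past the threshold. Of the 5 glutaredoxins, 1 was lower, *grx4* at -0.58, and *grx2* was highest at 0.45, not past the threshold (adjusted p = 0.0985, limma). None of the 3 glutathione S-transferases passed in either direction, with *gst1* at 0.08 and *gst3* at 0.52 (adjusted p = 0.0593, limma), and 1 of the 3 had an unadjusted p under 0.05. With the replicate block *gst3* passed as higher (adjusted p = 0.0116, limma), as it did without IP replicate 1 (0.61) and without input replicate 1 (0.78). Of the other thiol and copper factors, 1 of 5 was lower, *txl1* (a thioredoxin-like protein) at -0.56, and *mxr1* (a methionine sulfoxide reductase) was highest at 0.21. Of the 5 regulators, 1 was lower, *atf1* at -0.43, and *hba1* was highest at 0.20. The calls of *gsa1* and *atf1* were lost without IP replicate 1 (-0.37 and -0.38), and that of *atf1* also without input replicate 2 (-0.37). The call of *pgr1* (glutathione reductase), the other lower gene of glutathione recycling, was lost without IP replicate 2 (-0.33) and without input replicate 2 (-0.27).

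Together 5 of the 21 other genes were called lower and 0 higher by limma (9 had an unadjusted p under 0.05), where 22.2% of protein-coding genes were lower. The calls of *gsa1*, *pgr1*, *grx4*, *txl1* and *atf1* were all lost with DESeq2 (adjusted p of 0.0732 for *txl1* to 0.252 for *pgr1*) and with limma without the trend (0.0803 for *grx4* to 0.195 for *pgr1*). EdgeR called 5 lower and 1 higher, *gst3*. The median of the 21 was -0.07, close to the -0.11 of all protein-coding genes. The 10 antioxidant enzyme genes had 5 lower calls and a median of -0.42. Their median IP density of 0.318 also lies above that of the 21, 0.133, of which 15 were above the median gene. The highest of the 21 was *sty1*, for the stress-activated MAP kinase, at 0.287, below 6 of the 10 members. The lists were not tested against each other.

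**Figure D3:**
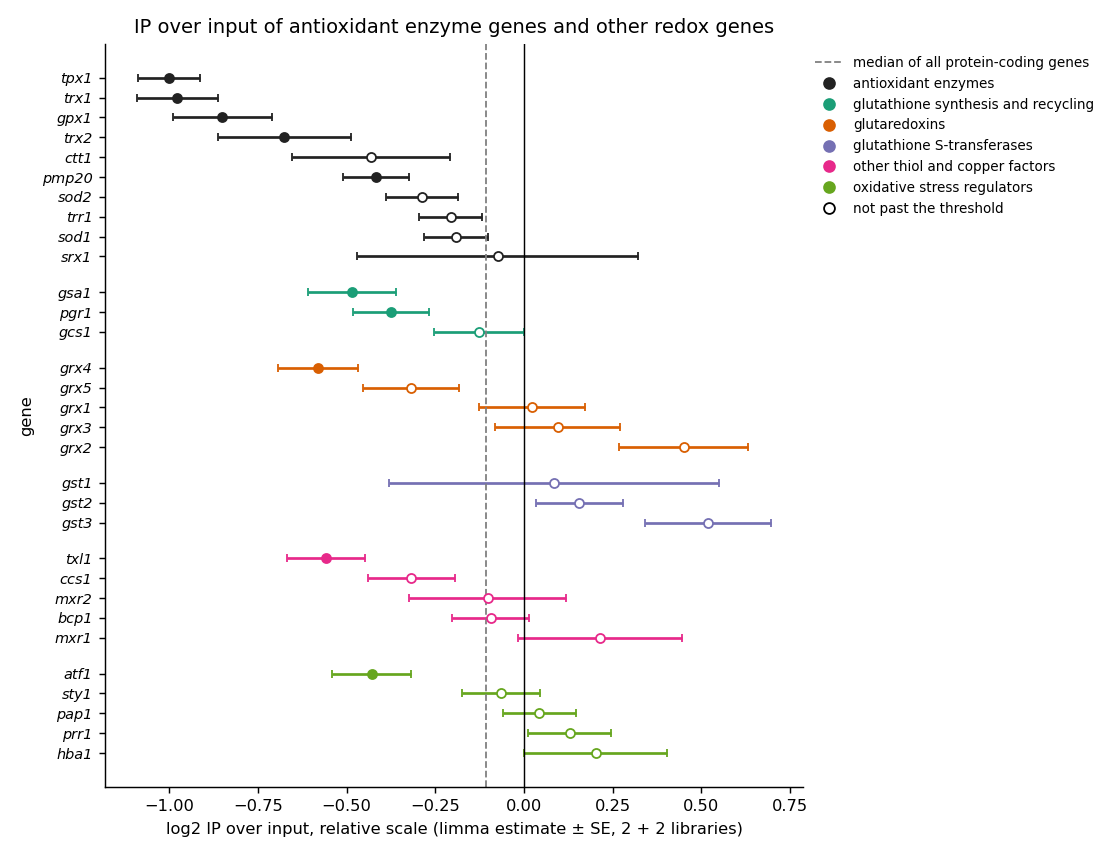
Log2 IP over input on the relative scale (limma estimate ± SE, 2 IP and 2 input libraries) of the 10 antioxidant enzyme genes and of 21 other redox and regulator genes by list. Filled points passed the adjusted p threshold of 0.05, open points did not, the solid line is 0 and the dashed line is the median of all protein-coding genes at -0.11. The antioxidant enzyme genes lie from -1.00 (*tpx1*) to -0.07 (*srx1*), all left of 0 in this fit, with *srx1* right of the dashed line.

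Within the genes, the share of reads on coding sequence differed between nascent and total RNA for some members. It was lower in both IP than in both input libraries for 5 of the 10 (*pmp20*, *sod1*, *sod2*, *trr1* and *ctt1*), as for 45.6% of the 4644 protein-coding genes with at least 10 reads in every library. It was higher in the IP for 0 members, against 12.9% of those genes. The members' counts are to be read against these shares, from which 5 of 10 hardly departs, and *srx1* has only 9 reads in each input.

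The gap was widest for *pmp20*, whose coding share was 47.8% (95% exact binomial interval 45.6% to 50.0%) and 50.5% (49.1% to 52.0%) in the IP. In the input it was 74.8% (72.7% to 76.9%) and 69.0% (66.5% to 71.5%). The 310 nt of *pmp20* outside the coding sequence had a density of 3.49 and 3.36 in the IP, above the 2.10 and 2.26 of the coding sequence. In the input the order was turned, with 0.430 and 0.465 outside and 0.842 and 0.682 within. For *trr1* the coding share was 69.3% (65.8% to 72.7%) and 69.4% (67.0% to 71.8%) in the IP and 80.5% (76.6% to 83.9%) and 75.6% (71.0% to 79.8%) in the input. For *sod1* it was 73.7% (70.5% to 76.8%) and 74.1% (71.8% to 76.3%) in the IP against 81.9% (78.3% to 85.1%) and 74.9% (70.3% to 79.2%) in the input, and for both genes the intervals of input replicate 2 and the IP overlap. For *sod2* and *ctt1* each IP interval overlaps each input interval. Of the members with a lower share in the IP, only *pmp20* had IP intervals apart from all its input intervals. All these intervals cover counting error only, and replicates differed by more than that.

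**Figure D4:**
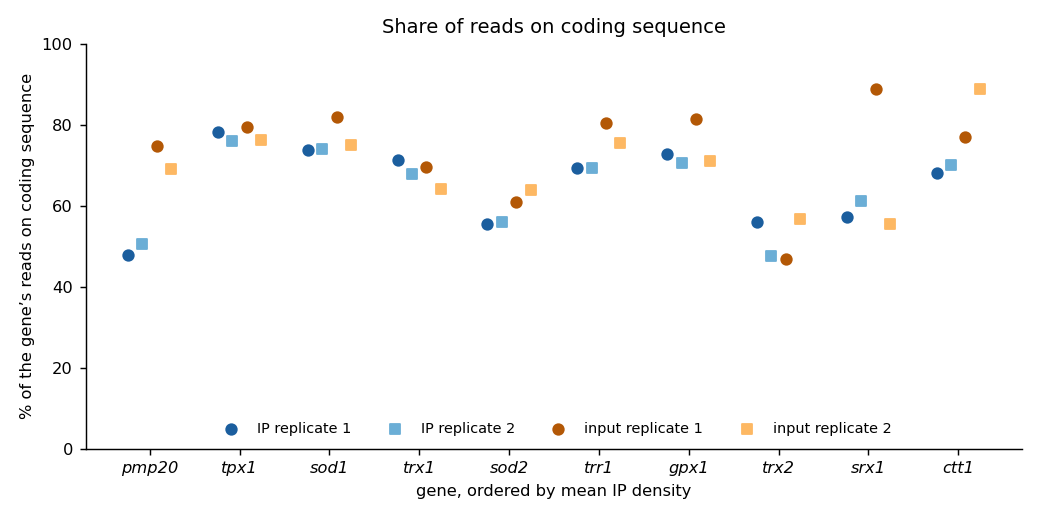
Percent of the reads of each antioxidant enzyme gene that lie on its coding sequence, in each of the 4 libraries, ordered by mean IP density. The IP points of *pmp20*, 47.8% and 50.5%, lie below its input points, 74.8% and 69.0%, while those of *tpx1*, 78.2% and 76.0%, lie among its input points of 79.5% and 76.4%.

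An intron divides the coding sequence of 3 members. In *trr1*, the A that forms the first coding segment, printed above, had 21 and 47 reads in the IP and 1 read in each input replicate. The second segment of *trr1* (968 nt) had 479 and 969 reads in the IP and 390 and 287 in the input. The reads on the single A equal those on 42.4 and 47.0 nt of the second segment in the IP, and on 2.48 and 3.37 nt in the input. Over the coding segments of at most 3 nt in all genes, the same measure against the whole gene was 48.2 and 45.1 nt in the IP and 5.04 and 0.973 nt in the input, so *trr1* is not alone in this. Bowtie maps a read as 1 block, so a read from spliced RNA that spans such a border is lost, and its part in these values was not tested.

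In *sod2* the first coding segment (108 nt) had a density of 0.639 and 0.645 in the IP and 0.0383 and 0.0594 in the input. It exceeded the second segment 2.21- and 2.07-fold in the IP and was at 0.398 and 0.654 of it in the input, so the groups did not overlap. The first segment is the shorter, and the density of short features is overstated in the IP, as given above. The part of this in the contrast was not tested. In *trx2* the first segment was at 0.640 and 0.604 of the second in the IP and at 1.00 and 0.778 in the input, on 7 to 16 reads. The ratio of first to second segment was thus higher in the IP for 2 of these 3 members, *sod2* and *trr1*, and for 41.4% of the 2195 protein-coding genes with 2 or more coding segments and at least 10 reads in every library (1 read added to each segment for this share, none for the members).

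A non-coding feature on the opposite strand overlapped 3 of the 10 members by 50 nt or more, against 36.2% of all protein-coding genes. For *ctt1* and *pmp20* it is a XUT, and for *trr1* an annotated ncRNA gene. The other 7 members had none at any overlap. The 3 pairs differed widely in how much antisense RNA was read.

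For *ctt1*, XUT0794 (chromosome III, 57000 to 57814, + strand, 815 nt) lies opposite to the gene over its whole length. It had a density of 0.0270 and 0.0302 in the IP, from 22 and 52 reads, and 0.00234 and 0.00306 in the input, from 6 and 7 reads. The log2 of sense over antisense density was -0.44 in both IP replicates and 1.26 and 0.51 in the input replicates. By density the XUT was thus above the gene in the nascent RNA and below it in the total RNA, in each replicate. The 95% exact Poisson intervals of XUT and gene, taken per nt, overlap in each library. The counts of a single library thus do not set the order. On the relative scale the log2 IP over input of XUT0794 was 0.75 ± 0.40, not past the threshold (adjusted p = 0.201, limma).

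For *trr1*, SPNCRNA.1678 (named trr1-antisense-1, chromosome II, 4188757 to 4190763, - strand, 2007 nt) overlaps the gene over 1620 nt, across the split start codon. It had 21 and 35 reads in the IP and 26 and 34 in the input, which gives a density of 0.0105 and 0.00826 in the IP and 0.00412 and 0.00604 in the input. *trr1* exceeded it 29.9- and 36.4-fold in the IP and 16.3- and 9.76-fold in the input. On the relative scale the log2 IP over input of this ncRNA was -1.61 ± 0.34 (adjusted p = 0.00596, limma), which is a lower ratio than that of the median gene, while *trr1* was at -0.21. Without the trend in limma the call was lost (adjusted p = 0.0777).

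For *pmp20*, XUT0801 (chromosome III, 118702 to 118926, + strand, 225 nt) lies within the gene on the other strand and had 0 reads in each of the 4 libraries. With each count of 0 set to 3 reads, *pmp20* was 199- and 427-fold higher than XUT0801 in the IP and 160- and 125-fold higher in the input. The 95% exact Poisson interval of 0 reads reaches 3.69, so these folds are not lower limits. XUT0801 lies mostly opposite to the coding sequence of *pmp20*, on which 901 to 2248 reads were counted per library, so the counts were made by strand. Of the 3 members, *ctt1* alone had an opposite-strand RNA of higher density in the nascent RNA, with overlapping counting intervals. *trr1* and *pmp20* stood far above theirs.

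**Figure D5:**
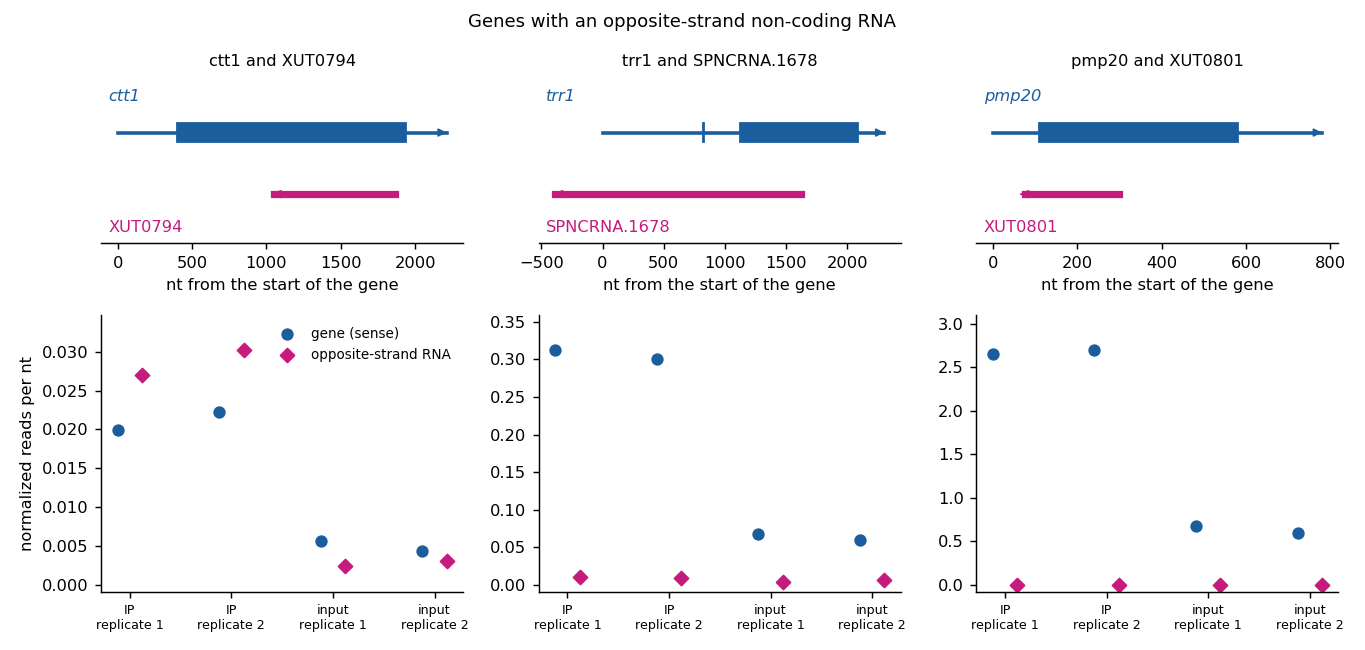
Top, the 3 members with an opposite-strand non-coding RNA, drawn in nt from the start of the gene (boxes, coding sequence; pink, the opposite-strand RNA; arrowheads, direction of transcription). Bottom, normalized reads per nt of the gene and of the opposite-strand RNA in each library, on a scale of its own for each pair. XUT0794 lies above *ctt1* in both IP libraries (0.0270 and 0.0302 against 0.0199 and 0.0223) and below it in both input libraries, and XUT0801 is at 0 throughout.

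Protein-coding genes on the opposite strand overlapped 5 of the 10 members by 1 nt or more, against 42.6% of all protein-coding genes. These overlaps lie at the gene ends and covered 20.7% of *sod2* (with *dsc2*) and 24.1% of *trx2* (with *srb11*). They were 40 nt for *srx1* with *mph1*, 25 nt for *gpx1* with *gem7* and 17 nt for *trx1* with SPAC7D4.08. Both *srb11*, at an IP density of 0.112 and 0.115, and *mph1*, at 0.0977 and 0.0811, were above the member they face. The other opposite genes were below their member. *dsc2*, at 0.0950 and 0.104, was below *sod2*, *gem7*, at 0.0496 and 0.0723, below *gpx1*, and SPAC7D4.08, at 0.00936 and 0.0144, below *trx1*.

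On the same strand, a non-coding feature (a XUT, an ncRNA gene or another non-coding transcription unit) overlapped 3 of the 10 members, against 9.79% of all protein-coding genes. In the 3 members it was an ncRNA gene in each case, and reads in the shared nt were counted for both. SPNCRNA.1258 shares 89 nt with *tpx1* and SPNCRNA.1259 shares 9 nt with it. Their IP densities were 0.183 and 0.224, and 0.0285 and 0.0366, below the 1.09 and 1.07 of *tpx1*. SPNCRNA.1110 shares 33 nt with *pmp20* and had 0.149 and 0.126 in the IP. SPNCRNA.1350 shares 61 nt with *srx1* and had 0.0127 and 0.0123 in the IP, from 18 and 37 reads.

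On the relative scale 2 of these 4 ncRNAs had a lower IP over input, SPNCRNA.1259 at -2.05 ± 0.26 (adjusted p = 0.000281, limma) and SPNCRNA.1110 at -0.60 ± 0.14 (adjusted p = 0.00990, limma). SPNCRNA.1258 was at -0.26 ± 0.14 and SPNCRNA.1350 at 0.55 ± 0.48, neither past the threshold. The call of SPNCRNA.1110 was lost with DESeq2 (adjusted p = 0.131) and without the trend in limma (adjusted p = 0.103). Reads of *pmp20* in the 33 nt it shares with SPNCRNA.1110 are part of that value, so the 2 values are not independent. The same holds for SPNCRNA.1258 and SPNCRNA.1259 with *tpx1*, and for SPNCRNA.1350 with *srx1*. How much of the signal of each ncRNA comes from the gene it overlaps was not tested.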

How the data were processed

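NET-Seq libraries of *exo2*Δ cells were analysed, 2 IP and 2 input, 1 of each per biological replicate. The authors removed adapters, mapped reads of 50 nt with Bowtie (ASM294v2), kept reads that map uniquely with up to 2 mismatches and counted them on annotated features. The counting tool and the basis of the library factor are not given in the sources used here. For IP replicate 1 the deposited values are whole counts of reads. In the deposited columns of the others the signal is reads times a factor of the library (0.474, 0.318 and 0.357 normalized reads per read for IP replicate 2 and input replicates 1 and 2), given also as a density signal per nt. Dividing by the smallest positive value recovered whole reads for 100% of values (tolerance 0.001 reads). The deposited pooled columns are sums of replicates and were not used.

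The members and gene lists were chosen with earlier results of these data known. Named are the 10 members, each non-coding feature opposite to a member by 50 nt or more, each other feature on the same strand, the highest and lowest gene of each list on the relative scale, and the 2 genes nearest to the members of highest and lowest IP density. Opposite protein-coding genes were added after their overlaps were seen.

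IP and input were compared with limma 3.58.1 in R 4.3.3 (trend, two-sided) on log2(normalized reads + 0.318), over 8651 features (value above 0 in at least 2 libraries), with Benjamini-Hochberg adjustment over all of them. On this scale the change of features with few reads is understated. The relative scale first subtracts the log2 value of the median protein-coding gene of each library. Per gene ratios given by replicate pair IP and input of 1 number. The labels say that both come from the same biological sample, and deviations of IP and input from their group means had r = 0.152 over 4644 genes. Replicates differed beyond counting error (chi-square per degree of freedom 3.95 and 3.78). Alternatives were edgeR 4.0.16 and DESeq2 1.42.0 on the recovered reads, other pseudocounts and filters, a replicate block, limma without trend, another centring and leaving out each library. For the relative scale edgeR and DESeq2 set their own library factors in place of the median protein-coding gene. The median estimate of protein-coding genes was then -0.02 and -0.03, against -0.11 in the main fit. Reads of the coding sequence in place of the gene, and lengths plus 1 read of 50 nt, were added after seeing the data. Fits were also run on simulated data, with all libraries drawn from the IP composition at a fixed spread. The simulated input thus lacked the tRNA share of the real input, so that run cannot vouch for the calls given here.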

Additional observations from a re-analysis of the deposited data

Results flagged for a closer look

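The ratio of *ctt1* to its antisense XUT0794 was below 1 in both IP replicates (log2 -0.44 in each) and above 1 in both input replicates (1.26 and 0.51). The mean of the IP minus that of the input was -1.32 on the log2 scale. The difference itself was not tested, and the input value of XUT0794 rests on 6 and 7 reads (95% exact Poisson intervals 2.20 to 13.1 and 2.81 to 14.4). Its IP value rests on 22 and 52 reads (13.8 to 33.3 and 38.8 to 68.2).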

How the results depend on the processing

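Depth limits *srx1* most, which had 9 reads in each input replicate and could not be fitted under the filter of 10 reads in every library. With 2 libraries a group, p-values reach no further than these cultures. Limma takes the spread of a feature in part from the other features, with the trend by their mean signal. A lone library in a fit that leaves 1 out is assumed to vary like the others.

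On the deposited scale 8050 features passed the threshold, 7010 to 7768 without 1 library, and all tested members stayed higher under each alternative. On the relative scale 2265 features passed (797 higher, 1468 lower), and 1817 to 2534 without 1 library (472 to 999 higher, 1342 to 1535 lower). With a pseudocount 10 times larger 4650 passed, 3925 of them lower. Without the trend 653 passed (218 higher, 435 lower), with 1 of the 10 members, *tpx1*, called lower. DESeq2 called 1286 (426 higher, 860 lower), with 3 members lower, *tpx1*, *trx1* and *gpx1*, and edgeR called 2246. Both tools set their own library factors, so the zero of the scale changed along with the test. Limma with the trend called 5 members lower, and 4 to 6 without 1 library. The calls of *pmp20* and *trx2* are those that DESeq2 did not make (adjusted p = 0.0617 and 0.227). With the replicate block 2809 features passed, and 6 members were called lower, *sod2* being the one added. The block changed no other member's call, and among the other redox genes it added *gst3* and *ccs1*. *gst1* turned from 0.08 to -0.70 with the larger pseudocount.

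The log2 sense over antisense IP density of *ctt1* was -0.45 over coding sequence alone and -0.39 with 1 read added to each length, against -0.44, and -0.44 without either replicate. That of *trr1* was 5.77 over coding sequence, against 5.04, and 4.90 to 5.19 without 1 replicate. That of *pmp20* was 7.64 to 8.74 with XUT0801 set to 3 reads. An overlap of 1 nt or more gave the same 3 members. The causes were not tested.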
